A study of Homo sapiens with 12 samples.

Results

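Cells make cholesterol and fatty acids from the same cytosolic acetyl-CoA, and the 30 genes described here cover both routes together with their control. They were taken by symbol from a list of synthesis genes, and all 30 were found in the deposited tables, among 62426 genes in the count table, of which 40400 had any count. The sterol branch holds 21 of them. These are 7 genes of the mevalonate pathway (ACAT2, HMGCS1, MVK, PMVK, MVD, IDI1 and FDPS), 3 that lead to lanosterol (FDFT1, SQLE and LSS), 8 that turn lanosterol into cholesterol (CYP51A1, TM7SF2, MSMO1, NSDHL, HSD17B7, EBP, SC5D and DHCR7) and 3 for control and transport (INSIG1, STARD4 and SREBF2). The fatty acid branch holds 9, namely SCD, FASN, ACACA, ACLY, ELOVL6, FADS1, FADS2, ACSS2 and LPIN1.

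The genes were followed in SW480 and HCT116, established human colon cancer cell lines, in 12 RNAseq libraries of polyA RNA. In each line the study compared cells overexpressing CD44s (CD44s-OE), the standard isoform of the hyaluronan receptor CD44, and cells overexpressing CD44v6 (CD44v6-OE), an isoform that carries variant exon v6, with the parental line, and asked what each isoform changes in the transcriptome. Each of the 6 groups had 2 libraries. OE cells had been stably transfected with an expression plasmid for the isoform and selected with Geneticin. The labels name pcDNA for both plasmids, whereas the study's list of reagents names pcDNA for CD44s and pUC57 for CD44v6, so the OE groups may also differ in vector. No source used here says whether parental cells received an empty vector or the selection, and the isoform, the plasmid and the selection cannot be told apart. The sequence file names mark the OE cells as pools, all cells grew in standard culture medium, and no source says that the 2 libraries of a group came from separate cultures. The p-values below therefore measure the spread between these libraries, which may be technical.

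The genes of both branches are known targets of the sterol regulatory element-binding proteins (SREBPs). These membrane-bound transcription factors stay in the endoplasmic reticulum, held by INSIG proteins and the escort protein SCAP, while sterols are plentiful, and they are cut free and enter the nucleus when sterols fall. SREBP-2, the product of SREBF2, is known mainly for the sterol genes and SREBP-1, the product of SREBF1, mainly for the fatty acid genes. Tumour cells, those of the colon among them, often keep both routes active.

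Levels are given as CPM, counts scaled to the total count of the library and a TMM factor (trimmed mean of M-values, which corrects for differences in library composition), or per kilobase of exon (FPKM) where different genes are compared. Libraries held 43102156 to 52811889 counts, and a gene of the 2 branches held between 294 counts (CYP51A1, HCT116 parental 1) and 167120 counts (FASN, HCT116 parental 2). Total CD44, which does not separate the isoforms, stood at 178 and 202 CPM in SW480 CD44s-OE, 132 and 145 in SW480 CD44v6-OE and 184 and 162 in SW480 parental libraries. In HCT116 it was 578 and 514 CPM in CD44s-OE, 504 and 504 in CD44v6-OE and 546 and 557 in parental libraries. CD44s-OE thus overlapped with parental cells in both lines and CD44v6-OE lay below them in both, although scaled to the library total alone SW480 CD44s-OE (187 and 203) exceeded parental cells (172 and 165). The total does not check the labels, whose group names are used below. Summed markers of colon epithelium lay between 6128 and 18631 CPM, whereas leukocyte, endothelial, and adipocyte and hepatocyte markers summed to at most 5.45, 2.12 and 0.887 CPM.

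The bases before the start site of 4 genes are shown because ACSS2 and STARD4 are the genes called in most comparisons below, HMGCS1 is a called gene of the mevalonate pathway, and SREBF2 is the 1 gene with a classical sterol regulatory element in this window among the 26 genes that could be searched. Sequences are from RefSeq (GRCh38.p14), 5′ to 3′ on the gene's strand, and end at the base before the most upstream annotated start. They are ACSS2 at chr20:34874739-34874988 (+), STARD4 at chr5:111512536-111512785 (-), HMGCS1 at chr5:43313413-43313662 (-) and SREBF2 at chr22:41832855-41833104 (+). Capitals mark CCAAT boxes (CCAAT, or ATTGG on the other strand), the site of NF-Y, and in SREBF2 also the sterol regulatory element core TCACNCCAC.
ACSS2: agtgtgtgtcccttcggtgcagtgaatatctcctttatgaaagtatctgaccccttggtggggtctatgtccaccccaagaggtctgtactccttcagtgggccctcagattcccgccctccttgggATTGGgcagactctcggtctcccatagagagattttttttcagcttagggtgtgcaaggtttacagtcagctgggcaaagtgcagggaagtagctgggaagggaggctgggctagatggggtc
STARD4: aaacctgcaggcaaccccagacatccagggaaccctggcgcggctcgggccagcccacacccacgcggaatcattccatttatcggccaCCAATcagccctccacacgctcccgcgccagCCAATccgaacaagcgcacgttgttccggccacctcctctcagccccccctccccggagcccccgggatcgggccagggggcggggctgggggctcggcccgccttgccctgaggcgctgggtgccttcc
HMGCS1: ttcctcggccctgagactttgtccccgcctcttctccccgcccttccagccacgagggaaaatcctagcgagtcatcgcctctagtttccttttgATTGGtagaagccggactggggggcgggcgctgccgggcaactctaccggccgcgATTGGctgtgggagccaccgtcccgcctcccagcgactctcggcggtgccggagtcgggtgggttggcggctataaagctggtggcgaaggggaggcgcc
SREBF2: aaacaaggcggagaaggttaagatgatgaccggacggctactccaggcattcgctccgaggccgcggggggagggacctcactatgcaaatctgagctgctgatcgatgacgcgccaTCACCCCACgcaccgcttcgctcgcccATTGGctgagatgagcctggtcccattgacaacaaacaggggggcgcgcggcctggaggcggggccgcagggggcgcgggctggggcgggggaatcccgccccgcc
Windows of 250 bases before to 50 bases after a start site were found for 26 of the 30 genes (38 windows), and none for ACAT2, FDFT1, SQLE and FASN. On both strands, TCACNCCAC matched 1 of the 26 genes, SREBF2, 133 bases before its start, and 1.13% of all 35116 windows. CCAAT matched 21 of 26 genes, 16 of 18 in the sterol branch and 5 of 8 in the fatty acid branch, or 65.8% of their windows against 34.6% of all windows. ACSS2 and HMGCS1 also have a window further downstream (chr20:34876362-34876661 and chr5:43313132-43313431), which holds GC boxes and no CCAAT box. The GC box GGGCGG, a site of Sp1, matched 25 of 26 genes and 86.8% of their windows against 45.0% of all windows, and the E-box CACGTG matched 3 genes and 10.5% of windows against 7.26%. None of these words contains another, and a match is a description of the letters in the window.

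All 30 genes were expressed in all 12 libraries. Per kilobase of exon the fatty acid branch held the highest levels of the set, SCD and FASN. SCD, the desaturase that makes oleate from stearate, averaged 133 ± 22, 147 ± 19 and 165 ± 23 FPKM in CD44s-OE, CD44v6-OE and parental SW480 (SD, n = 2 each), and 342 ± 16, 368 ± 2.4 and 351 ± 66 FPKM in the same groups of HCT116. FASN, the synthase that builds palmitate, averaged 99.6 ± 5.3, 107 ± 17 and 117 ± 27 FPKM in SW480 and 245 ± 24, 305 ± 25 and 323 ± 53 FPKM in HCT116. In both lines these genes stood in the same order in each group.

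In the sterol branch the highest level in SW480 was that of FDPS (94.1 FPKM in CD44s-OE) or DHCR7 (82.0 FPKM in CD44v6-OE and 109 FPKM in parental cells). FDPS makes farnesyl diphosphate and DHCR7 carries out the last step to cholesterol. In HCT116 it was FDFT1, squalene synthase, at 67.7 ± 1.8 FPKM in CD44s-OE, 72.7 ± 2.6 in CD44v6-OE and 64.8 ± 19 in parental cells (SD, n = 2 each), a difference smaller than the spread of the parental libraries. The lowest was CYP51A1, lanosterol demethylase, at 1.92 to 2.29 FPKM over the 6 groups, but 80.59% of its exon bases are shared with another gene of the same strand, and its counts, like those of EBP (36.43% shared), are therefore uncertain. HSD17B7 has a transcribed copy, HSD17B7P2, with 15 to 204 counts per library against at least 778 for HSD17B7, while other annotated copies had at most 9 counts. LPIN1 was the lowest of the fatty acid branch in HCT116 (1.63 to 2.26 FPKM) and ELOVL6 in SW480 (2.45 to 2.88 FPKM). The median of the branch was 18.01 to 23.3 FPKM for sterol and 11.4 to 24.9 FPKM for fatty acid genes.

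Within a line the genes varied by modest factors. The highest library exceeded the lowest by a median of 1.586 times for sterol genes of SW480 (range 1.24 to 2.017) and 1.605 times in HCT116 (1.316 to 2.818), and by 1.462 and 1.506 times for fatty acid genes. The sterol genes moved together from library to library. Against the mean of the 6 libraries of the line on the log2 CPM scale, their median stood at -0.33 in HCT116 parental 1, where 0 of 21 genes were above the mean, and at 0.15 in HCT116 parental 2, where 18 were. HCT116 parental 1 was the lowest library for 16 of the 21 genes. Parental 2 exceeded parental 1 in 20 of 21 sterol genes, with a median difference of 0.56 on the log2 scale, and in 9 of 9 fatty acid genes, with a median of 0.17, against 0.016 for all genes tested. The other 5 groups had a median difference between their 2 libraries of -0.06 to 0.26 for sterol genes. Even so, library 2 was the higher one for 20 of 21 sterol genes in SW480 CD44v6-OE and 17 of 21 in HCT116 CD44s-OE. Counts of sterol genes on 1 side are therefore not counts of independent changes. The parental HCT116 libraries thus disagree about the sterol branch by more than most changes reported below, and each HCT116 comparison with parental cells is also given without either of them.

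In SW480 the library at the low end was CD44v6-OE 1, the lowest for 18 of 21 sterol genes, with a median of -0.30 and 1 gene above the mean. SW480 CD44v6-OE 2 had a median of -0.11 and 3 genes above the mean. The remaining SW480 libraries had medians of 0.02 and 0.23 (CD44s-OE) and 0.12 and 0.09 (parental). In HCT116 the medians were -0.08 and 0.13 in CD44s-OE libraries, and 0.01 and 0.11 in those of CD44v6-OE, between those of the parental pair.

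**Figure D1:**
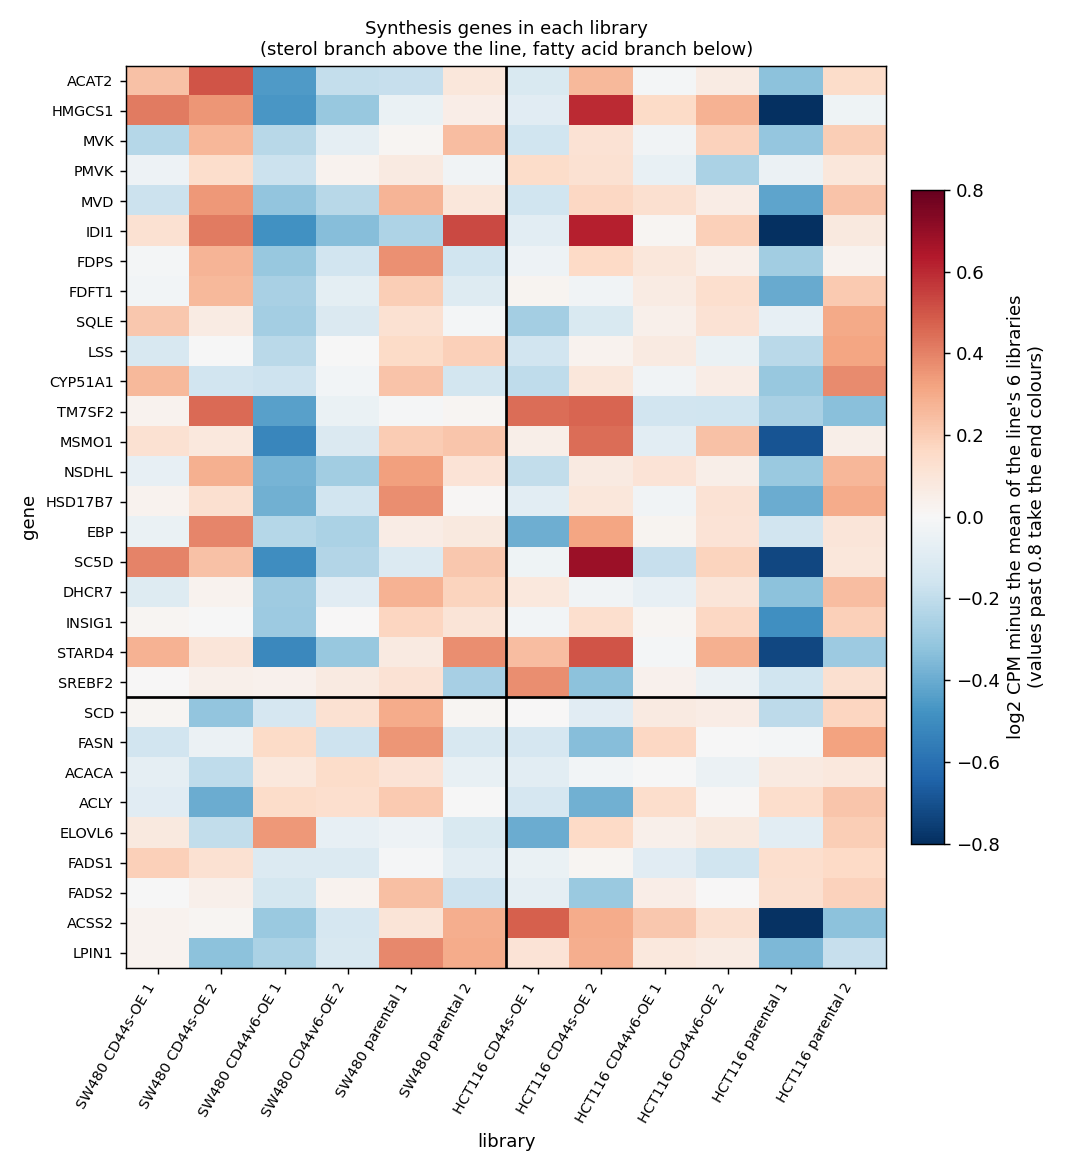
Deviation of log2 CPM from the mean of the line for each gene (rows) and library (columns), with the sterol branch above the line; blue is below and red above the mean, and values past 0.8 take the end colours. The column of HCT116 parental 1 is below the mean for 21 of 21 sterol genes and that of SW480 CD44v6-OE 1 for 20 of 21.

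In HCT116 CD44s-OE cells, 5 of the 30 genes differed from parental cells. ACSS2, STARD4, TM7SF2 and LPIN1 were higher and ACLY was lower (adjusted p under 0.1 in edgeR's quasi-likelihood test, with Benjamini-Hochberg adjustment over the 17335 genes tested). The 4 higher genes are 13.3% of the 30, against 8.45% of all tested genes called higher, and the 1 lower gene is 3.33%, against 5.71% called lower. No gene passed the study's additional fold threshold, an absolute log2 fold change over 1.5, which 3.09% of all genes did; the largest absolute value among the 30 was 0.96.

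ACSS2, which makes acetyl-CoA from acetate in the cytosol and nucleus (hg19 chromosome 20, 33459949 to 33515765, + strand), had 99.5 and 87.6 CPM in CD44s-OE, against 41.2 and 56.7 CPM in parental HCT116. Both CD44s-OE libraries exceeded both parental ones, and the log2 fold change was 0.96 ± 0.16 (SE of the fit, n = 2 each here and below; 95% interval 0.60 to 1.33; edgeR adjusted p = 0.0111). STARD4, a cytosolic cholesterol carrier (chromosome 5, 110831731 to 110848288, - strand), had 23.3 and 27.9 CPM in CD44s-OE, against 11.9 and 16.1 CPM in parental cells. The groups did not overlap, and the log2 fold change was 0.91 ± 0.20 (interval 0.45 to 1.36; adjusted p = 0.0297). TM7SF2, a reductase acting on the sterol ring after CYP51A1 (chromosome 11, 64879317 to 64883880, + strand), had 75.4 and 76.3 CPM in CD44s-OE, against 46.1 and 43.9 CPM in parental cells. Its libraries agreed closely within each group, at a log2 fold change of 0.78 ± 0.13 (0.49 to 1.07; adjusted p = 0.0099).

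LPIN1, a phosphatidate phosphatase of glycerolipid synthesis (chromosome 2, 11817721 to 11967535, + strand), had 25.1 and 28.5 CPM in CD44s-OE, against 18.2 and 20.5 CPM in parental cells. The log2 fold change was 0.50 ± 0.16 (0.15 to 0.86; adjusted p = 0.0842), with no overlap. ACLY, which splits citrate into cytosolic acetyl-CoA (chromosome 17, 40023170 to 40086795, - strand), had 392 and 330.3 CPM in CD44s-OE, against 474 and 503 CPM in parental cells. It was the 1 gene of the set called lower, with a log2 fold change of -0.41 ± 0.13 (interval -0.69 to -0.13, edgeR adjusted p = 0.0793). ACSS2 and ACLY, the suppliers of cytosolic acetyl-CoA in the set, thus lay on opposite sides.

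The branches as a whole differed little. The median log2 fold change was 0.10 over the sterol genes, 17 of 21 of them positive, and -0.12 over the fatty acid genes, 7 of 9 negative, while the median of all genes was 0.04 with 53.7% positive. Groups of libraries did not overlap for 4 of 21 sterol and 7 of 9 fatty acid genes, against 51.4% of all genes. Leaving out HCT116 parental 1 turned the sterol median to -0.05 and leaving out parental 2 raised it to 0.41. HMGCS1, IDI1, SC5D and MSMO1 had log2 fold changes of 0.73, 0.65, 0.67 and 0.57 that did not pass the test (adjusted p = 0.162 to 0.229). FASN had -0.37 ± 0.14 (adjusted p = 0.138) and SQLE -0.30 ± 0.15 (adjusted p = 0.253), both with no overlap between the groups.

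With libraries left out in turn the number of called genes was 2 without HCT116 parental 1, 1 without parental 2, 9 without CD44s-OE 1, 8 without CD44s-OE 2 and 3 without either CD44v6-OE library, against 5 with all 6. ACSS2 was called in all of them (log2 fold change 0.76 to 1.19). TM7SF2 lost its call without parental 2 (0.73, edgeR adjusted p = 0.131), and STARD4 without parental 1 (0.71, adjusted p = 0.166) or parental 2 (1.12, adjusted p = 0.116). LPIN1 (0.43 to 0.58, adjusted p = 0.232 to 0.3) and ACLY (-0.44 to -0.38, adjusted p = 0.177 to 0.343) lost theirs on leaving out any of the parental and CD44v6-OE libraries.

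Between CD44v6-OE and parental HCT116 cells, ACSS2 alone was called. It had 83.0 and 77.9 CPM in CD44v6-OE, against 41.2 and 56.7 CPM in parental cells, with no overlap (log2 fold change 0.75 ± 0.16, interval 0.39 to 1.12; edgeR adjusted p = 0.0837). This is 3.33% of the 30 genes, against 1.44% of all genes called higher, and 0 were lower (0 at an unadjusted p under 0.05, against 3.12% of all genes), against 0.0981% of all genes. DESeq2 called 2 genes in either direction, and none of the 30 passed the fold threshold that 0.779% of all genes did. The call of ACSS2 was lost without parental 1 (0.55, adjusted p = 0.349), parental 2 (0.98, adjusted p = 0.204), CD44v6-OE 1 (0.71, adjusted p = 0.619) or CD44v6-OE 2 (0.78, adjusted p = 0.46).

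STARD4, at 19.4 and 23.9 CPM in CD44v6-OE against 11.9 and 16.1 CPM in parental HCT116, had a log2 fold change of 0.67 ± 0.20 that did not pass (adjusted p = 0.232). LPIN1 had 24.7 and 24.5 CPM, against 18.2 and 20.5 CPM (0.38, adjusted p = 0.401). Both lacked overlap between the groups, as did 5 of 21 sterol and 5 of 9 fatty acid genes in all, against 53% of all genes. TM7SF2 stood at 49.7 and 49.4 CPM in CD44v6-OE, close to its parental 46.1 and 43.9 CPM. The sterol median was 0.15 (-0.07 without parental 1 and 0.39 without parental 2) and the fatty acid median -0.05 (0.12 without parental 2, and 0.01 with scaling to the total count only), beside 0.00 for all genes. The comparisons of CD44s-OE and of CD44v6-OE with parental cells share the parental libraries, and their values are not independent.

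Comparing HCT116 cells with CD44s to those with CD44v6, edgeR called 0 of the 30 genes. Of all genes it called 0.421% higher and 0.392% lower, and 0.288% passed the fold threshold. At an unadjusted p under 0.05 in edgeR, 1 of the 30 was higher and 2 lower, against 5.66% and 4.86% of all genes. DESeq2 called 1 gene. TM7SF2 came nearest, with 75.4 and 76.3 CPM in CD44s-OE against 49.7 and 49.4 CPM in CD44v6-OE. The groups stood well apart, and the log2 fold change was 0.61 ± 0.13 (0.32 to 0.89; adjusted p = 0.102). It was called once CD44s-OE 1 (0.63, adjusted p = 0.00563) or CD44s-OE 2 (0.58, adjusted p = 0.0135) was left out, when 2 and 3 genes passed. ACLY (-0.34, adjusted p = 0.37), FASN (-0.33, adjusted p = 0.459) and SQLE (-0.28, adjusted p = 0.572) had negative values that did not pass. The branch medians were -0.01 for sterol (-0.16 to 0.08 with a library left out) and -0.12 for fatty acid genes (0.01 without CD44s-OE 1), and 4 of 21 and 7 of 9 genes had no overlap, against 41% of all genes.

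In SW480 the comparison of CD44s-OE with parental cells gave no call by edgeR or DESeq2. At an adjusted p under 0.1, 2.50% of all genes were called higher and 2.22% lower, and 2.03% passed the fold threshold. At an unadjusted p under 0.05 in edgeR, 2 of the 30 genes were higher and 1 lower, against 7.94% of all genes in each direction. The 3 genes were ACAT2, HMGCS1 and LPIN1. ACAT2, the cytosolic thiolase that joins acetyl-CoA units ahead of HMGCS1, had 172 and 208 CPM in CD44s-OE, against 129 and 156 CPM in parental SW480. HMGCS1, the synthase of hydroxymethylglutaryl-CoA, had 59.7 and 57.1 CPM, against 43.1 and 46.3 CPM. Both were higher in each CD44s-OE library than in either parental one, at log2 fold changes of 0.40 ± 0.17 (adjusted p = 0.28) and 0.38 ± 0.16 (adjusted p = 0.263). LPIN1, at 51.7 and 40.4 CPM in CD44s-OE against 66.0 and 62.2 CPM in parental cells, had -0.49 ± 0.17 (adjusted p = 0.169). Without parental 2, edgeR called 2 genes, ACAT2 (0.53, adjusted p = 0.0823) and LPIN1 (-0.55, adjusted p = 0.0913). The median was 0.00 over the sterol and -0.19 over the fatty acid genes, and 8 of 21 and 5 of 9 genes had no overlap, against 42.4% of all genes.

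In SW480 CD44v6-OE cells the sterol genes lay below the parental level as a group, though no gene passed the test. Of the 21, 20 had a negative log2 fold change, the exception being SREBF2 (0.10), and the median was -0.33, beside -0.01 and 51.9% negative for all genes. The 2 CD44v6-OE libraries also differed from each other in 1 direction for 20 of 21 sterol genes (median difference 0.18). Groups did not overlap for 16 of 21 sterol genes, against 38.4% of all genes, and for 3 of 9 fatty acid genes, whose median was -0.12. With any library left out the sterol median stayed between -0.44 and -0.30, whereas the fatty acid median ran from -0.32 without parental 2 to 0.11 without parental 1. edgeR called 0 of the 30 genes, against 0.542% of all genes higher, 0.0285% lower and 0.416% past the fold threshold. At an unadjusted p under 0.05, 0 were higher and 11 lower (9 sterol and 2 fatty acid), against 6.15% and 2.55% of all genes, and DESeq2 called 1, STARD4 (-0.66, adjusted p = 0.0492).

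STARD4 had 34.9 and 40.3 CPM in CD44v6-OE, against 52.4 and 64.5 CPM in parental SW480. The groups did not overlap, but the edgeR log2 fold change of -0.66 ± 0.17 (-1.03 to -0.28) did not pass (adjusted p = 0.201). IDI1, the isomerase that makes dimethylallyl diphosphate, had 32.3 and 35.6 CPM, against 38.1 and 65.1 CPM. Its parental libraries differed widely (log2 fold change -0.62 ± 0.23, adjusted p = 0.445). NSDHL, which takes part in removing the methyl groups at carbon 4 of the sterol ring, had 87.5 and 93.8 CPM, against 142 and 122 CPM (-0.57 ± 0.17, adjusted p = 0.284), with no overlap. MSMO1 (-0.54), HSD17B7 (-0.49), MVD (-0.48), SC5D (-0.44) and DHCR7 (-0.43) followed. Without parental 1 edgeR called 2 genes, IDI1 (-0.94, adjusted p = 0.0115) and STARD4 (-0.78, adjusted p = 0.0305), and without parental 2 it called 2 others, FDPS (-0.62, adjusted p = 0.0927) and NSDHL (-0.69, adjusted p = 0.0638). In the fatty acid branch LPIN1 had -0.55 (adjusted p = 0.299) and ACSS2 -0.43 (adjusted p = 0.392).

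Set against each other, the OE cells of SW480 differed in 2 sterol genes. HMGCS1 and ACAT2, which open the mevalonate pathway, were both higher with CD44s than with CD44v6. HMGCS1 (chromosome 5, 43287572 to 43313614, - strand) had 59.7 and 57.1 CPM in CD44s-OE, against 32.4 and 36.3 CPM in CD44v6-OE. ACAT2 (chromosome 6, 160183077 to 160200144, + strand) had 172 and 208 CPM, against 107 and 128 CPM. No library of the CD44v6-OE group reached one of the CD44s-OE group, and the log2 fold changes were 0.78 ± 0.16 (0.43 to 1.12; edgeR adjusted p = 0.0355) and 0.70 ± 0.17 (0.32 to 1.09; adjusted p = 0.0933). They are 6.67% of the 30 genes, against 0.570% of all genes called higher, and 0 were lower, against 1.55% of all genes. At an unadjusted p under 0.05 in edgeR 0 of the 30 were lower as well, against 6.63% of all genes. None passed the fold threshold, which 1.02% of all genes did.

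In this comparison 20 of 21 sterol genes had a positive log2 fold change (median 0.37, beside 0.01 and 51.5% positive for all genes), again with the exception of SREBF2 (-0.02). Groups did not overlap for 14 of 21 sterol and 4 of 9 fatty acid genes, against 46.8% of all genes, and the fatty acid median was -0.09. At an unadjusted p under 0.05, 10 genes were higher, all of the sterol branch, or 10 of 30 against 4.17% of all genes. IDI1 (0.70, adjusted p = 0.265), SC5D (0.69, adjusted p = 0.115) and STARD4 (0.61, adjusted p = 0.154) did not pass. SC5D, the desaturase of the sterol ring at carbon 5, had 52.9 and 47.3 CPM in CD44s-OE, against 28.5 and 34.1 CPM in CD44v6-OE. DESeq2 called 4 genes, adding SC5D and STARD4, and the share of all genes it called is not given here. Without CD44s-OE 1, CD44s-OE 2, CD44v6-OE 1 or CD44v6-OE 2 no gene was called by edgeR, at log2 fold changes of 0.69 to 0.86 for HMGCS1 (adjusted p = 0.175 to 0.475) and 0.55 to 0.84 for ACAT2 (adjusted p = 0.169 to 0.751). The sterol median stayed at 0.26 to 0.44 with any library left out, and the fatty acid median reached 0.02 without CD44s-OE 2. This comparison and that of CD44v6-OE with parental SW480 share the CD44v6-OE libraries, and their values are not independent. Against parental SW480 the sterol median of CD44s-OE was 0.00.

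**Figure D2:**
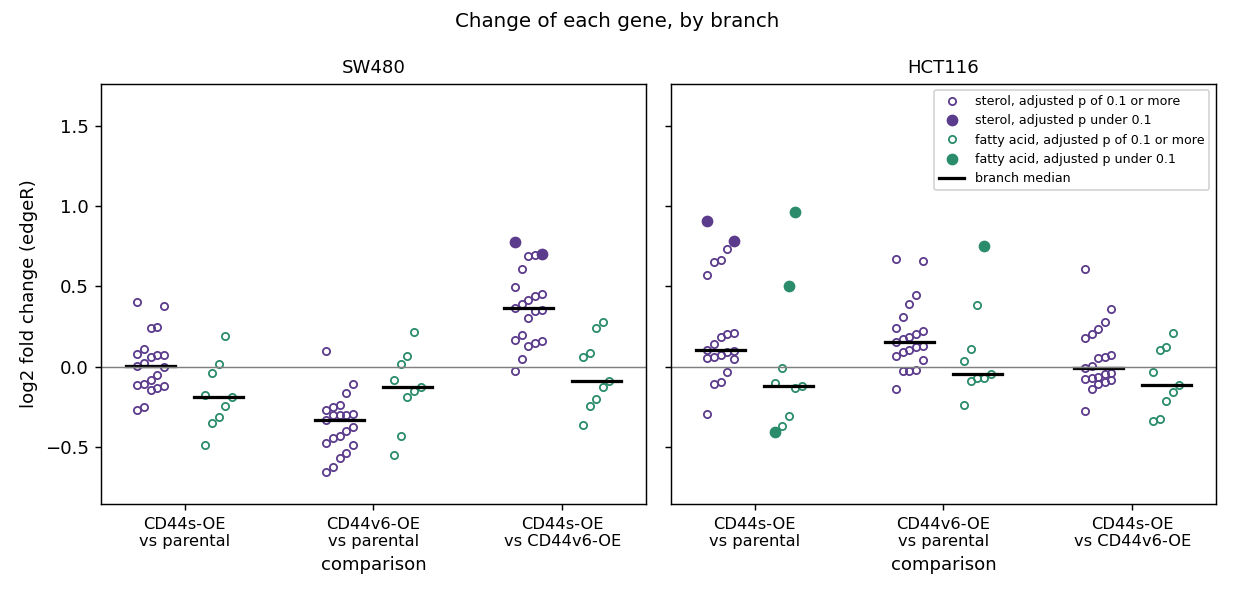
Log2 fold change of each gene in the 3 comparisons of SW480 (left) and HCT116 (right), sterol genes in purple and fatty acid genes in green, filled where the adjusted p was under 0.1; black lines are branch medians. In SW480 the sterol median lies at -0.33 for CD44v6-OE against parental cells and at 0.37 for CD44s-OE against CD44v6-OE cells, and the 5 filled points of CD44s-OE against parental HCT116 lie from -0.41 to 0.96.

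INSIG1, SREBF2, SQLE, SCD and FASN were called by edgeR in no comparison within a line. INSIG1, the feedback protein that retains SCAP and is itself an SREBP target, had 78.0 and 76.8 CPM in CD44s-OE, 63.0 and 77.4 in CD44v6-OE and 86.8 and 83.0 in parental SW480. In HCT116 it had 77.8 and 86.5 CPM in CD44s-OE, 79.8 and 88.6 in CD44v6-OE and 56.1 and 89.99 in parental cells. Groups overlapped wherever the wide parental HCT116 pair was involved, and no comparison passed (log2 fold change -0.14 and -0.29 in SW480 and 0.20 and 0.24 in HCT116 for CD44s-OE and CD44v6-OE against parental cells; edgeR adjusted p = 0.573 to 0.732). SREBF2 had 290.2 and 298 CPM in CD44s-OE, 297 and 305 in CD44v6-OE and 314 and 241 in parental SW480. In HCT116 it had 536 and 329.9 CPM in CD44s-OE, 425 and 399.9 in CD44v6-OE and 370.1 and 452 in parental cells. The groups overlapped with parental cells in both lines, and its log2 fold changes against them lay between 0.04 and 0.10.

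SQLE, the monooxygenase that starts the committed oxygen-dependent part of sterol synthesis, had 132 and 118 CPM in CD44s-OE, 93.5 and 105 in CD44v6-OE and 123 and 112 in parental SW480. In HCT116 it had 66.7 and 73.7 CPM in CD44s-OE, 82.6 and 87.1 in CD44v6-OE and 76.8 and 99.4 in parental cells. It was thus lowest in CD44v6-OE cells of SW480 and in CD44s-OE cells of HCT116, with no call in either line (for CD44s-OE against CD44v6-OE, 0.35 and edgeR adjusted p = 0.449 in SW480, -0.28 and 0.572 in HCT116). HMGCS1 in HCT116 had 57.3 and 92.2 CPM in CD44s-OE, 67.9 and 74.0 in CD44v6-OE and 32.7 and 59.6 in parental cells. CD44s-OE 2 and both CD44v6-OE libraries exceeded both parental ones, and CD44s-OE 1 did not (for CD44v6-OE, 0.66 ± 0.29, edgeR adjusted p = 0.453).

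SCD had 780.2 and 619 CPM in CD44s-OE, 701 and 839 in CD44v6-OE and 947 and 780.0 in parental SW480. In HCT116 it had 1853 and 1732 CPM in CD44s-OE, 1941 and 1924 in CD44v6-OE and 1595 and 2082 in parental cells. The parental HCT116 pair enclosed all other libraries of the line, and no comparison passed (log2 fold change -0.32 and -0.19 in SW480, -0.01 and 0.11 in HCT116). FASN had 893 and 963 CPM in CD44s-OE, 1105 and 886 in CD44v6-OE and 1269 and 909 in parental SW480. In HCT116 it had 2442 and 2124 CPM in CD44s-OE, 3011 and 2682 in CD44v6-OE and 2661 and 3361 in parental cells. The CD44s-OE libraries of HCT116 were its lowest, at -0.37 against parental and -0.33 against CD44v6-OE cells, with edgeR adjusted p of 0.138 and 0.459.

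A change in HCT116 and none in SW480 does not show that the lines differ, so the difference of the changes (SW480 minus HCT116) was tested in a fit of all 12 libraries. For CD44s-OE against parental cells 3 of 30 genes differed, or 10% against 3.92% of all 19567 genes tested. They were ACSS2 (-1.13 ± 0.22, interval -1.60 to -0.66; edgeR adjusted p = 0.0166), LPIN1 (-0.97 ± 0.22, -1.45 to -0.49; adjusted p = 0.0412) and STARD4 (-0.93 ± 0.27, -1.50 to -0.36; adjusted p = 0.0942). ACSS2 had 187 and 185 CPM in CD44s-OE against 197 and 224 CPM in parental SW480, lower in both libraries, whereas it was higher in both CD44s-OE libraries of HCT116. LPIN1 likewise was lower in CD44s-OE than in parental SW480 and higher in HCT116, while STARD4 (60.5 and 53.2 CPM in CD44s-OE against 52.4 and 64.5 CPM in parental SW480) overlapped in SW480. Within SW480 none of the 3 genes was called (for ACSS2, edgeR adjusted p = 0.613).

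For CD44v6-OE against parental cells 2 of 30 genes differed between the lines, or 6.67% against 0.409% of all genes. They were again ACSS2 (-1.16 ± 0.22, -1.63 to -0.69; adjusted p = 0.0517) and STARD4 (-1.30 ± 0.27, -1.87 to -0.73; adjusted p = 0.0797), on the same parental libraries. ACSS2 had 149 and 167 CPM in CD44v6-OE against 197 and 224 CPM in parental SW480, and both CD44v6-OE libraries were the lower ones, though edgeR did not call the change within SW480. At an unadjusted p under 0.05 in edgeR a further 6 genes had negative differences, making 8 of 30, against 3.7% of all genes. Positive differences numbered 0, against 5.16% of all genes. LPIN1 was among the 6 (-0.90, adjusted p = 0.158), and HMGCS1 had -1.03 (adjusted p = 0.381). For CD44s-OE against CD44v6-OE, edgeR and DESeq2 called 0 of 30, against 0.491% of all genes in edgeR. At an unadjusted p under 0.05 in edgeR, 3 were positive and 0 negative, against 2.97% and 5.43% of all genes.

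The difference of ACSS2 for CD44s-OE held with any library left out (-1.36 to -0.92). That of LPIN1 was lost without HCT116 parental 1 (-0.89, edgeR adjusted p = 0.146), HCT116 parental 2 (-1.04, adjusted p = 0.109) or SW480 CD44s-OE 2 (-0.80, adjusted p = 0.176). That of STARD4 was kept without HCT116 CD44s-OE 1 or SW480 parental 1 and lost when any of the other 10 libraries was left out (-1.15 to -0.73, adjusted p up to 0.281), so that the count ranged from 1 to 3. For CD44v6-OE the difference of ACSS2 was lost without HCT116 parental 1 (-0.95, adjusted p = 0.222), HCT116 CD44v6-OE 1 (-1.11, adjusted p = 0.271) or 2 (-1.19, adjusted p = 0.235), or SW480 CD44v6-OE 1 (-1.08, adjusted p = 0.335). That of STARD4 was lost without the same libraries (-1.10, -1.44, -1.13 and -1.20) and without SW480 CD44s-OE 1 or 2 (-1.29 each), and the count ranged from 0 to 3.

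The parental lines themselves differed in more of these genes than OE cells did from parental cells of their line. Between parental SW480 and parental HCT116, 23 of 30 genes differed, 15 higher and 8 lower in SW480, or 50% and 26.7% against 31.7% and 29.2% of all genes. The share that passed the fold threshold was 13.3% (4 genes), against 29.0% of all genes. All 23 had libraries that did not overlap, as did 76% of all genes. The lines differ in origin and in much else, which cannot be told apart here. In the sterol branch 11 genes were higher and 3 lower (median 0.46), and 7 did not pass. In the fatty acid branch all 9 were called, 4 higher and 5 lower (median -0.45), beside a median of 0.04 over all genes.

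Of the fatty acid genes, FASN, ELOVL6, SCD, ACACA and ACLY were lower in parental SW480. FASN had 1269 and 909 CPM in parental SW480 against 2661 and 3361 CPM in parental HCT116 (-1.43 ± 0.19, edgeR adjusted p = 2.99e-05). ELOVL6, the elongase of palmitate, had 18.3 and 17.3 CPM against 45.4 and 55.0 CPM (-1.46 ± 0.21, adjusted p = 4.95e-05). SCD (-1.05 ± 0.18), ACACA, the acetyl-CoA carboxylase that makes malonyl-CoA (131 and 116 against 219 and 221 CPM, -0.79), and ACLY (-0.45) were lower as well. FADS2 and FADS1, desaturases of polyunsaturated fatty acids, ACSS2 and LPIN1 were higher. FADS2 had 147 and 111 CPM in parental SW480 against 41.5 and 43.2 CPM in parental HCT116 (1.65 ± 0.16, adjusted p = 9.66e-07). FADS1 had 227 and 215 CPM against 116 and 118 CPM (0.96). ACSS2 had 197 and 224 CPM against 41.2 and 56.7 CPM, the largest difference of the set (2.14 ± 0.16, adjusted p = 8.22e-08), and LPIN1 66.0 and 62.2 CPM against 18.2 and 20.5 CPM (1.77 ± 0.16).

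In the sterol branch STARD4 stood out, with 52.4 and 64.5 CPM in parental SW480 against 11.9 and 16.1 CPM in parental HCT116 (2.10 ± 0.19, edgeR adjusted p = 6.53e-07). ACAT2 had 129 and 156 CPM against 46.8 and 65.2 CPM (1.39 ± 0.19, adjusted p = 3.13e-05). Of the 8 genes that turn lanosterol into cholesterol 6 were higher, EBP (1.36), NSDHL (1.26), DHCR7 (0.91), TM7SF2 (0.90), SC5D (0.81) and HSD17B7 (0.61). FDPS (0.79), LSS (0.60) and SQLE (0.46) were higher too. MVD, the mevalonate diphosphate decarboxylase, was lower, with 86.6 and 76.3 CPM against 125 and 196 CPM (-0.94, adjusted p = 0.00198), as were FDFT1 (-0.71) and SREBF2 (-0.52). HMGCS1 (-0.01), MVK (-0.02), PMVK (0.07), IDI1 (-0.15), CYP51A1 (0.16), MSMO1 (0.27) and INSIG1 (0.26) did not pass. MVK is the kinase that phosphorylates mevalonate, and PMVK phosphorylates the phosphomevalonate that results.

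With a parental library left out 19 to 23 genes were called. Without HCT116 parental 1 the calls of SQLE (0.29, edgeR adjusted p = 0.215), LSS (0.36, adjusted p = 0.12), HSD17B7 (0.31, adjusted p = 0.296) and SC5D (0.47, adjusted p = 0.21) were lost, and without HCT116 parental 2 those of FDFT1 (-0.39, adjusted p = 0.126) and SREBF2 (-0.39, adjusted p = 0.221). Without SW480 parental 1, SQLE (0.37, adjusted p = 0.107) and HSD17B7 (0.40, adjusted p = 0.193) were lost, and without SW480 parental 2, SC5D (0.66, adjusted p = 0.112), SREBF2 (-0.33, adjusted p = 0.232) and ACLY (-0.33, adjusted p = 0.135).

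**Figure D3:**
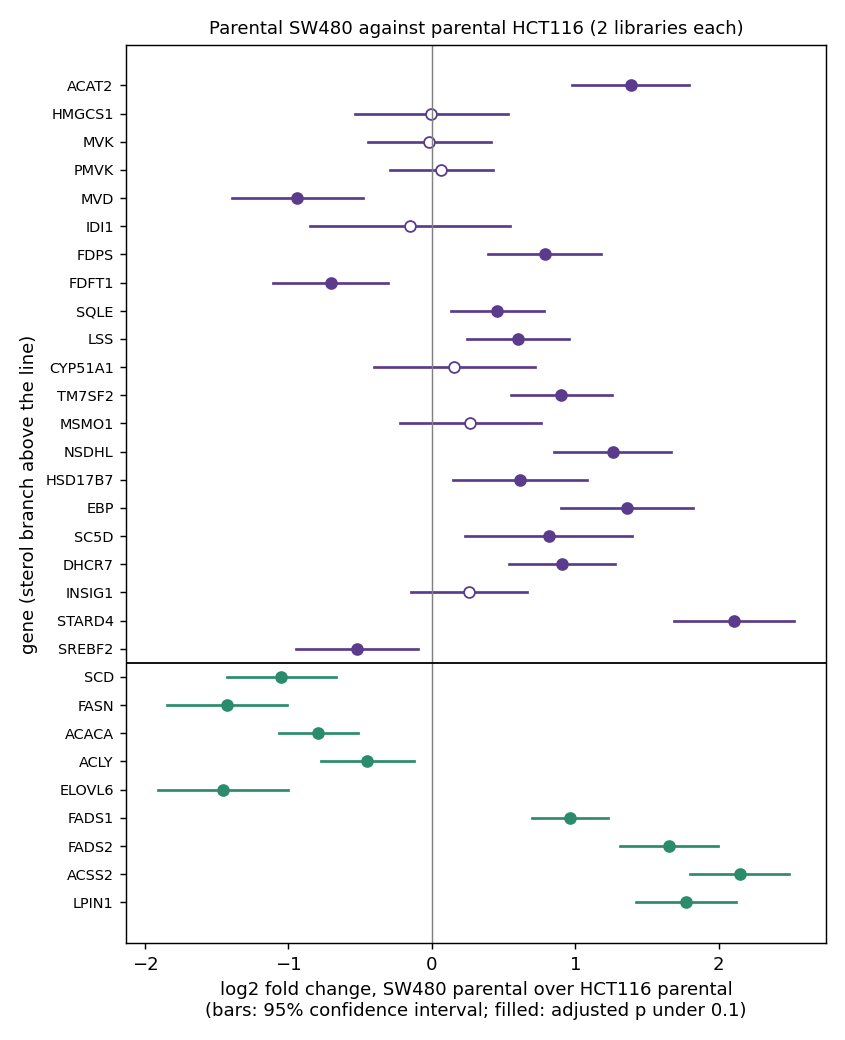
Log2 fold change of parental SW480 over parental HCT116 for each gene with its 95% confidence interval, filled where the adjusted p was under 0.1, sterol branch above the line. The 9 fatty acid genes are all filled and lie on both sides of 0, from -1.46 for ELOVL6 to 2.14 for ACSS2.

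Among neighbouring genes, SREBF1, which encodes SREBP-1, was called by edgeR in no comparison within a line. Its SW480 CD44s-OE libraries lay below parental (-0.36, edgeR adjusted p = 0.249) and CD44v6-OE libraries (-0.33, adjusted p = 0.433) without overlap. In the other comparisons within a line its groups overlapped. It was lower in parental SW480 than in parental HCT116 (-0.90, edgeR adjusted p = 0.00194).

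Of 14 tested genes of sterol synthesis and uptake outside the set, 0 were called by edgeR or DESeq2 in the 3 comparisons of HCT116 (at most 2 higher and 2 lower at an unadjusted p under 0.05 in edgeR). In SW480 NPC1, which exports cholesterol from lysosomes, fell in CD44s-OE against parental cells (-0.73, edgeR adjusted p = 0.0836), and CYP27A1, a sterol hydroxylase, rose in CD44v6-OE against parental cells (1.00, adjusted p = 0.0989). The 8 genes of SREBP processing and the 8 LXR targets and efflux genes had 0 calls within a line by edgeR (at most 1 and 2 higher, and 1 and 1 lower, at an unadjusted p under 0.05 in any comparison), and DESeq2 called 0 of SREBP processing and at most 1 LXR gene. Of 26 further fatty acid and glycerolipid genes, 4 rose in CD44s-OE against parental HCT116, MLXIPL, a glucose-responsive transcription factor (0.85, adjusted p = 0.0208), the acyl-CoA synthetase ACSL5 (0.65), LPIN3 (0.65) and FADS3 (0.42). MLXIPL also rose in CD44v6-OE against parental SW480 (1.01, adjusted p = 0.075), where it was lower with CD44s than with CD44v6 (-0.79, adjusted p = 0.0964). Among fatty acid oxidation and PPAR target genes, ACADVL rose (0.89, adjusted p = 0.0071) and CPT1A, which admits fatty acids to mitochondria, fell (-0.49, adjusted p = 0.0539) in CD44s-OE against parental HCT116. ANGPTL4 rose in CD44v6-OE against parental HCT116 (1.60, adjusted p = 0.0597), and PDK4 (1.68) and CD36 (3.64) rose in CD44s-OE against parental SW480.

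Other programmes also differed between groups. Summed proliferation markers stood at 2038 to 2417 CPM in CD44s-OE, 2532 to 2674 in CD44v6-OE and 3157 to 3221 in parental HCT116, and 6 of 12 were called lower in CD44s-OE against parental HCT116, PLK1 (-0.83) and MCM2 (-0.84) among them. Of all genes, 5.71% were called lower in that comparison. In the same groups of SW480 they summed to 2992 to 3007, 2745 to 2946 and 2663 to 3093 CPM, and edgeR called 0 of 12 in each comparison. Mesenchymal markers summed to 86.4 to 121 CPM in CD44s-OE, 27.6 to 29.2 in CD44v6-OE and 15.5 to 22.5 in parental HCT116, and to 987 to 1100, 705 to 861 and 803 to 1130 CPM in the same groups of SW480. The sums can hide calls of single genes. In CD44s-OE against parental SW480, ZEB1 (1.26, edgeR adjusted p = 0.0351) and SPARC (2.46, adjusted p = 0.0107) were called higher, 2 of 4 markers tested. Of all genes, 2.50% were called higher there. ZEB1 was also higher than in SW480 CD44v6-OE (1.42, edgeR adjusted p = 0.0286). Epithelial markers summed to 8122 to 9934 CPM in CD44s-OE, 13698 to 14761 in CD44v6-OE and 17187 to 18631 in parental SW480, and to 6128 to 6840, 6625 to 7506 and 6951 to 8729 CPM in HCT116. In CD44s-OE against parental HCT116, CDH1 (-1.61) and EPCAM (-1.14) were called lower and KRT20 (1.13) higher. Fibroblast markers summed to 3.06 to 3.52 CPM in CD44s-OE, 3.93 to 5.19 in CD44v6-OE and 2.14 to 3.90 in parental SW480, and to 33.8 to 56.2, 31.5 to 35.1 and 14.2 to 19.5 CPM in HCT116. Their part in the values of the synthesis genes was not tested, and in bulk RNA a change per cell and a change in the share of cells cannot be told apart.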

How the data were processed

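RNA of 12 libraries, 2 for each of 6 groups given by the labels, had been sequenced as read pairs on DNBSEQ. Alignment by the authors used STAR 2.7.9a and hg19, and stranded counting over GENCODE 35 genes used featureCounts 2.0.3. The deposited table holds these raw counts, and since its options do not ask for pairs, each read of a pair is taken as counted, so that a count of 0 allows up to 3 pairs, 6 counts or 0.114 to 0.139 CPM (counting error only). A second deposited table holds log2-like variance-stabilized values from DESeq2 1.30.1, used here only to match symbols to gene IDs. Tests used the counts with edgeR 4.0.16 (R 4.3.3, limma 3.58.1): filterByExpr, TMM, the robust quasi-likelihood test, and p-values adjusted by Benjamini-Hochberg over every gene tested, 17335 in HCT116, 17539 in SW480 and 19567 in the fit of 12 libraries, each line fitted alone except for the comparisons between lines. Calls were made at an adjusted p under 0.1, and the study's log2 fold change over 1.5 was a second rule. Log2 CPM used a prior count of 2. The fit was tested on simulated data. Plots were drawn with Python 3.11.15 and matplotlib 3.10.9.

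The 30 genes and the lists (sterol synthesis and uptake, SREBP processing, LXR targets, fatty acid and glycerolipid synthesis, fatty acid oxidation and PPAR targets, proliferation, and markers of cell types) were chosen with earlier results of these data known. All 30 genes are named, and values in every library are given for those called within a line without overlap and for INSIG1, HMGCS1, SQLE, SREBF2, SCD and FASN; other genes singled out were chosen after their values were seen. From the lists, up to 4 called genes per comparison are named, and SREBF1 always; some genes of this rule are not reported here. Alternatives were RLE size factors or the total count only, no filter or a minimum mean count of 50, robust=FALSE, the replicate number as block, DESeq2 1.42.0, halved counts, only the groups compared, all 12 libraries together, leaving out every library in turn, a threshold of 0.05 and other members of the branches. Replicate numbers do not pair the libraries. Libraries of a group differed by more than sampling noise, so none was counted as a duplicate.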

Additional observations from a re-analysis of the deposited data

Results flagged for a closer look

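The changes of 3 genes against parental cells differed between the lines in the test of the difference itself (SW480 minus HCT116, edgeR, 12 libraries). For CD44s-OE these were ACSS2 (-1.13, adjusted p = 0.0166), LPIN1 (-0.97, adjusted p = 0.0412) and STARD4 (-0.93, adjusted p = 0.0942), and for CD44v6-OE ACSS2 (-1.16, adjusted p = 0.0517) and STARD4 (-1.30, adjusted p = 0.0797). ACSS2 was lower in CD44s-OE and in CD44v6-OE than in parental SW480 and higher than in parental HCT116 in 2 of 2 libraries of each group. Neither of the lower levels in SW480 was called by edgeR within that line. Groups did not overlap for 42.4% and 38.4% of all genes in these SW480 comparisons. The parental libraries enter both differences, and parental HCT116 is also where ACSS2 and STARD4 were lowest of the 6 groups. Only ACSS2 with CD44s-OE kept its call with any library left out.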

How the results depend on the processing

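No call reversed under any alternative. Of the refits of called genes, 472 of 483 kept the call between the parental lines, 68 of 85 for CD44s-OE against parental HCT116, 12 of 17 for CD44v6-OE against parental HCT116, 23 of 34 for CD44s-OE against CD44v6-OE in SW480, and 48 of 63 and 29 of 42 for the line differences of CD44s-OE and CD44v6-OE. The number of called genes moved by over 1.5 times as follows. The share of all genes called in the same refit is not given here, nor for the DESeq2 and left-out-library counts above. A move in these counts can therefore not be told from a move in the calls over all genes. For CD44s-OE against parental HCT116 (5) it was 9 with no filter, 9 with the replicate block, 3 with only the groups compared and 3 at an adjusted p under 0.05, and 1 to 9 with a library left out. For CD44v6-OE against parental HCT116 (1) it was 3 with no filter, 3 with the replicate block, 2 with DESeq2, 3 with only the groups compared and 0 at 0.05, and 0 to 3 with a library left out. For CD44s-OE against CD44v6-OE in HCT116 (0) it was 1 with no filter, the mean count minimum of 50, the replicate block, DESeq2 and halved counts, and 0 to 3 with a library left out. For CD44s-OE against parental SW480 (0) it was 0 to 2 with a library left out. For CD44v6-OE against parental SW480 (0) it was 2 with no filter, 1 with DESeq2 and 0 to 2 with a library left out. For CD44s-OE against CD44v6-OE in SW480 (2) it was 5 with no filter, 1 with robust=FALSE, 4 with DESeq2, 5 with only the groups compared, 1 with all 12 libraries, 1 at 0.05 and 0 to 5 with a library left out. For the line difference of CD44v6-OE (2) it was 1 with the total count only, 5 with no filter, 0 at 0.05 and 0 to 3 with a library left out, and for that of CD44s-OE (3) 1 to 3 with a library left out. The cause was not tested. With a library left out, the sterol and fatty acid medians ran from -0.052 to 0.41 and -0.20 to -0.07 (CD44s-OE against parental), -0.070 to 0.39 and -0.092 to 0.12 (CD44v6-OE against parental) and -0.16 to 0.081 and -0.13 to 0.0051 (CD44s-OE against CD44v6-OE) in HCT116, and from -0.09 to 0.11 and -0.27 to -0.08, -0.44 to -0.30 and -0.32 to 0.11, and 0.26 to 0.44 and -0.13 to 0.023 in the same comparisons of SW480.

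Same-numbered libraries did not deviate together (correlations of 0.0239 to 0.0873 in HCT116 and -0.15 to 0.119 in SW480), so the block is given here only as above. With 2 libraries a group the fit finds large or tight differences, and a p that misses the threshold does not show equal levels. The genes have 294 counts or more in each library, so that the spread between libraries, not depth, limits these values.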
